A study of Mus musculus with 4 samples.

Results

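Small leucine-rich proteoglycans (SLRPs) are secreted matrix proteins, and the transcripts of 10 of their genes were followed here in stromal cells of a pancreatic tumour. The deposited tables list gene symbols in lower case, and the genes were chosen by symbol alone, as the rows dcn, bgn, lum, fmod, ogn, omd, prelp, aspn, kera and podn, 10 of the 22609 genes of the count table. Of these, 9 passed the filter on low counts and were among the 13875 genes tested. Kera did not pass it and is given as counts.

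RNA was sequenced from cells of a spontaneous pancreatic ductal adenocarcinoma model in mice of the C57BL/6 background; neither the alleles of the model nor the age of the mice is stated in the sources at hand. All cells had been sorted for fibroblast activation protein (FAP), a serine protease on the surface of stromal cells in tumours. Both groups therefore share the tumour, the background and FAP. The groups differ in CD34, a surface sialomucin found on endothelial cells, blood progenitors and some fibroblasts: FAP+ CD34+ and FAP+ CD34- cells each gave 2 libraries, called biological replicates by their titles. By its title the series is about CXCL12 from FAP-expressing fibroblasts and anti-PD-L1; the libraries set FAP+ cells with CD34 against those without. No source used here gives the number of animals behind a library, so the p-values measure the spread between these libraries only. Total counts were between 10322354 and 14633561 per library. CPM below are counts scaled to the library total in the usual way. Values in a sentence are in the order CD34+ replicate 1, CD34+ replicate 2, CD34- replicate 1 and CD34- replicate 2.

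An SLRP has a small core protein made mostly of leucine-rich repeats, which folds into a curved solenoid and binds collagen. Most members carry glycosaminoglycan chains, either chondroitin or dermatan sulphate (decorin, biglycan) or keratan sulphate (lumican, fibromodulin, keratocan), while asporin and podocan are known mainly as proteins without such chains. In connective tissue they set the width and spacing of collagen fibrils, and several bind TGF-beta, bone morphogenetic proteins or cell surface receptors. Fibroblasts are their main source, and decorin, lumican and biglycan are among the known matrix proteins of the stroma of pancreatic carcinoma.

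Several of the genes lie side by side. In the RefSeq gene order of GRCm38.p6, Aspn, Omd and Ogn follow each other on chromosome 13 after Ecm2; Dcn, Lum, Kera and Epyc follow each other on chromosome 10; and Optc, Prelp and Fmod follow each other on chromosome 1. Bgn is on chromosome X and Podn on chromosome 4. RefSeq promoters were found for 8 of the 10 genes (not for Dcn and Lum), and those of the chromosome 13 cluster are shown because its genes lay in opposite directions between the groups. Each line gives the 250 bases before the start site on the plus strand, at chr13:49544193-49544442 for Aspn, chr13:49582212-49582461 for Omd and chr13:49607765-49608014 for Ogn, from RefSeq GRCm38.p6. Capitals mark matches, on either strand, to any of 5 short motifs: the TATA box (TATAAA), the box bound by NF-Y (CCAAT), the GC box bound by Sp1 (GGGCGG), the AP-1 site (TGANTCA) and an E-box of Twist and related factors (CATNTG).
Aspn: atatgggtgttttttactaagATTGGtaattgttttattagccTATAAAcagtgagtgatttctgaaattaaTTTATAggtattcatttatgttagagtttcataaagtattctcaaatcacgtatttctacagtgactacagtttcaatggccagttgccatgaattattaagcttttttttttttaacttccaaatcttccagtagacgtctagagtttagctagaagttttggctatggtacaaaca
Omd: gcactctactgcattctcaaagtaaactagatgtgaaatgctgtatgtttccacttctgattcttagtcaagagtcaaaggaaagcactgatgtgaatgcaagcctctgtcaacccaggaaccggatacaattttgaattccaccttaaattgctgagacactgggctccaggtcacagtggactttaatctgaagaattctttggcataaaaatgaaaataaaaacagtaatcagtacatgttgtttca
Ogn: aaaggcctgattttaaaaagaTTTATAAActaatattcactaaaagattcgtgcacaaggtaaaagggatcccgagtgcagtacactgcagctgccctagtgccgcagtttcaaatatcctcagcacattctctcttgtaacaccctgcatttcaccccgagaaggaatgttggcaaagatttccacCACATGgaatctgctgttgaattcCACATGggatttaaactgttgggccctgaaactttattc
The Aspn window holds the TATA box at 207 and 178 bases and the NF-Y box at 229 bases before the start. The Ogn window holds the TATA box at 229 and 227 bases, on opposite strands and overlapping, and the E-box at 63 and 39 bases. The Omd window holds none of the 5. Over the 32851 RefSeq promoter windows of this length, the TATA box was found in 12.4%, the NF-Y box in 33.8%, the GC box in 32.7%, the AP-1 site in 6.75% and the E-box in 35%. The windows of Aspn, Omd and Ogn have 30%, 38.4% and 42% GC, below the median of 52.4% over all windows, while those of Bgn and Podn have 64.4% and 78%. A match is a string of letters and not a shown binding site. The reads were aligned to another build, mm9, and no coordinates of the data were used. In the same RefSeq table the gene Cenpp overlaps Aspn, Omd and Ogn. With the strand setting not given, its reads and theirs cannot be told apart where exons overlap; Cenpp itself had 1.07, 1.76, 1.82 and 1.85 CPM.

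The 10 genes together made up 1.36%, 1.92%, 1% and 1.29% of all counts of a library. The CD34+ libraries had the higher shares of counts, and the groups did not overlap by this measure. On the deposited RPKM scale, described below, the 10 genes summed to 3285, 6201, 3569 and 4840. There the groups overlapped and CD34+ replicate 1 was the lowest library. Biglycan transcripts alone were 71.3%, 49%, 74.4% and 61.8% of the members' counts. Without Bgn, the summed level of the other 9 was 3902, 9783, 2562 and 4913 CPM, and the groups overlapped.

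Levels of different genes were compared per gene length, on the deposited RPKM scale (reads scaled to gene length and to library size). Bgn was the highest member in every library, with 2272, 2857, 2554 and 2865 RPKM, and ranked between 4 and 8 among all genes. Dcn was second in every library, with 697, 2385, 659 and 1215 RPKM. Lum followed with 115, 442, 236 and 456 RPKM, and Prelp with 99.4, 347, 52.7 and 209 RPKM. These 4 genes held ranks 1 to 4 in that order in all 4 libraries. On the deposited bias-adjusted FPKM scale (the same kind of unit for fragments), Bgn and Dcn stayed at ranks 1 and 2, and Lum and Prelp shared ranks 3 and 4 in an order that varied by library. Among all genes, Bgn ranked 15, 12, 15 and 13 by FPKM, lower than by RPKM. The ranges of Lum and Prelp overlapped. Below them came Fmod, Ogn, Aspn and Podn, whose ranges overlapped, from 3.59 RPKM (Podn in CD34- replicate 1) to 91.9 RPKM (Ogn in CD34+ replicate 2). By RPKM, Aspn was at rank 8 in both CD34+ libraries and at rank 5 in both CD34- libraries; by FPKM it was at ranks 9, 8, 6 and 7. Omd was at rank 9 throughout by RPKM, with 1.51 to 7.35 RPKM, and at rank 7 by FPKM in CD34+ replicate 1, and Kera was last, at or below 0.445 RPKM.

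**Figure D1:**
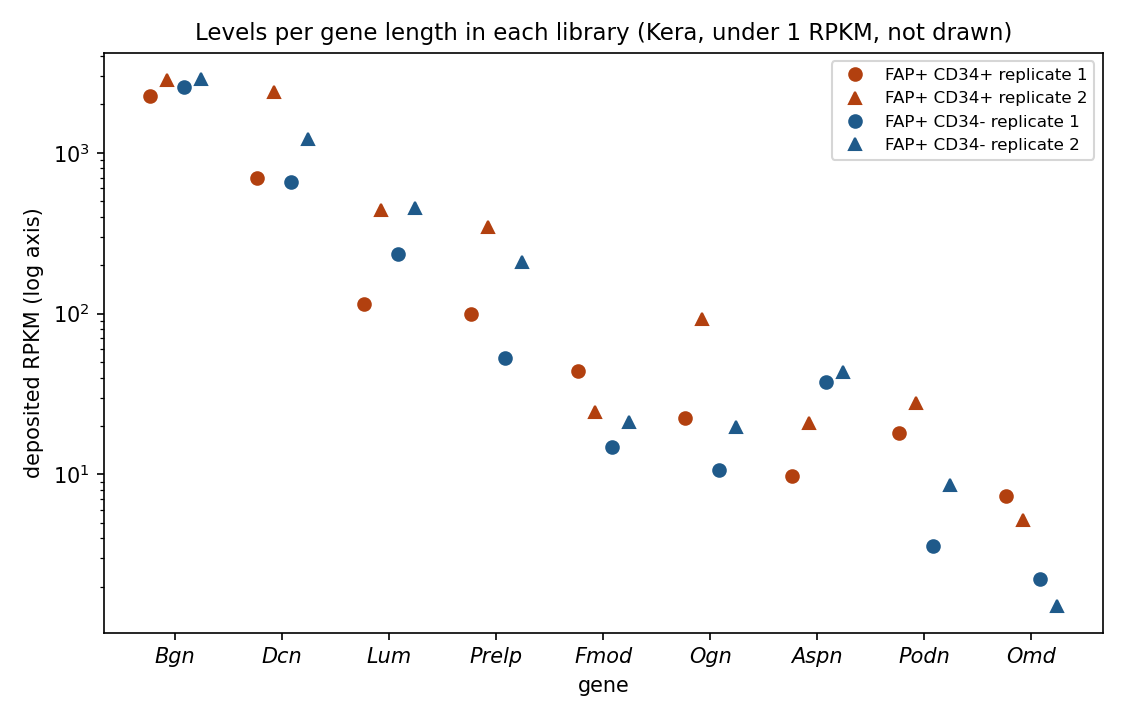
Deposited RPKM (vertical log axis) of 9 members, a point for each library, with colour for the CD34 group and shape for the replicate number. Bgn lies between 2272 and 2865 RPKM in all libraries. On this scale Bgn, Dcn, Lum, Prelp, Ogn, Aspn and Podn are higher in the library numbered 2 within each group. Aspn is the gene here whose CD34- points both lie above its CD34+ points with no overlap.

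Between the groups, no member passed the quasi-likelihood test of edgeR at an adjusted p of 0.05, in either direction. The same test called 0% of the 13875 genes higher and 0% lower. At an unadjusted p of 0.05, 4 members were higher in CD34+ cells (Podn, Omd, Ogn and Fmod), against 9.81% of all genes tested, and 1 was lower (Aspn), against 6.65%. DESeq2 called 3 members higher (Podn, Omd and Ogn), against 2.4% of its 14104 genes, and 0 lower, against 1.38%. The exact test of edgeR called the same 3 members higher, against 3.39%, and 0 lower, against 1.48%. Of the 9 members tested, 5 had both CD34+ libraries above both CD34- libraries by CPM, against 23.4% of all genes tested, and 1 had them below, against 26.6%. The log2 fold change, always CD34+ over CD34-, was positive for 7 of the 9, against 48.7% of all genes tested. The median of the 9 was 1.06 and that of all genes tested -0.02. A single library moved the members' median: it was 0.34 without CD34+ replicate 2, 0.59 without CD34- replicate 1, 1.54 without CD34+ replicate 1 and 1.73 without CD34- replicate 2. In bulk RNA of sorted cells, a lower share of cells with a transcript and less of it per cell cannot be told apart.

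**Figure D2:**
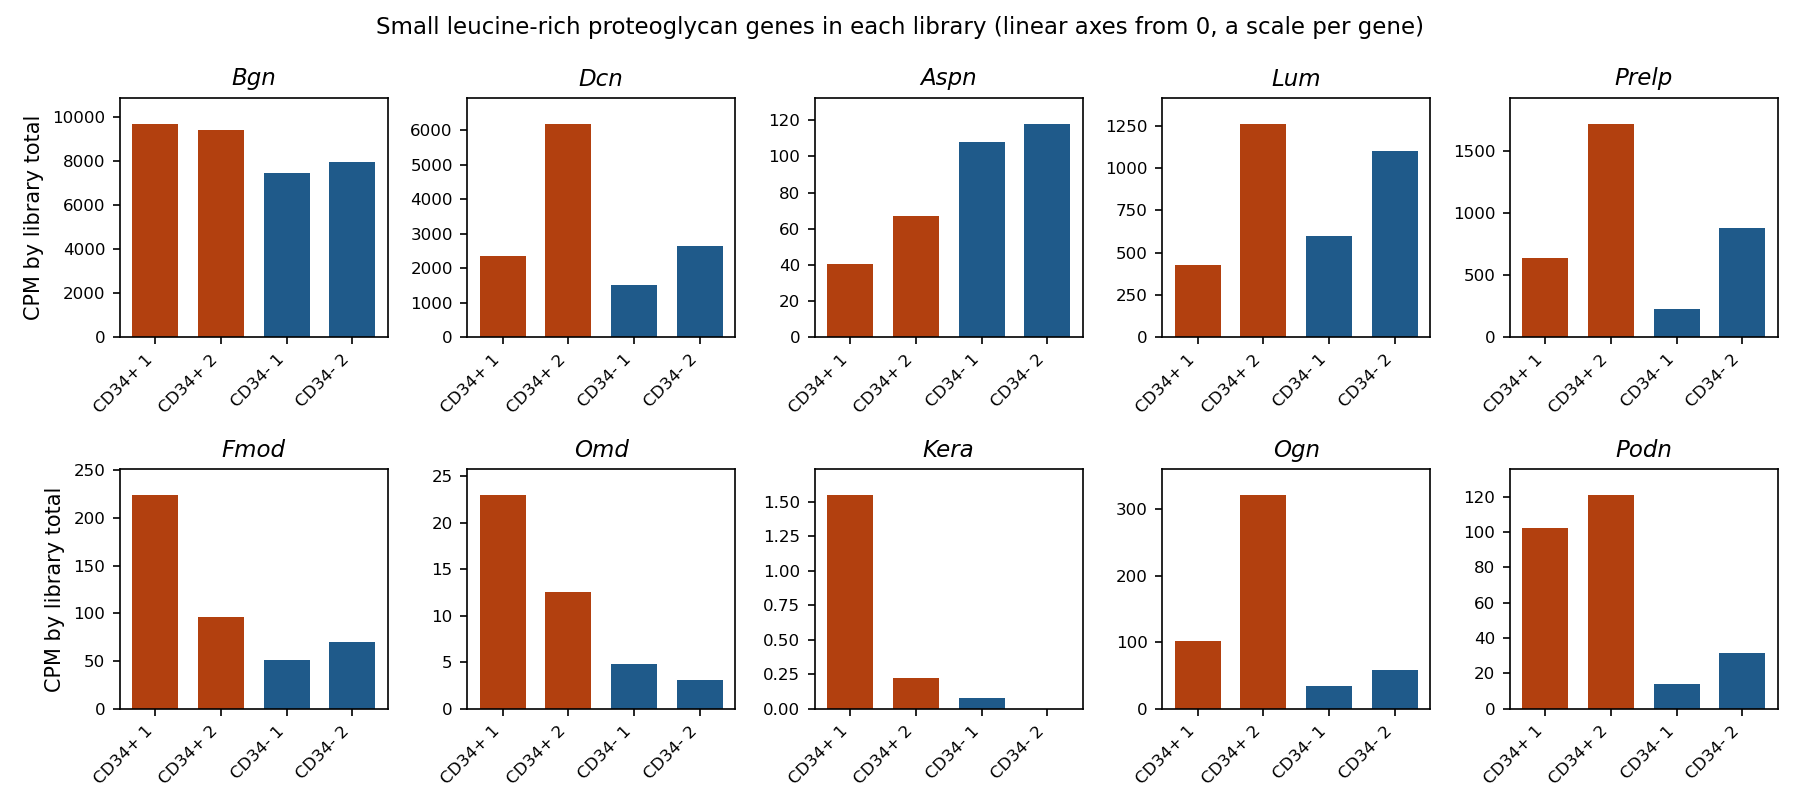
CPM by library total (vertical linear axes from 0, with a scale per gene) of the 10 members, with a bar for each of the 4 libraries and no error bars. Podn, Ogn, Omd, Fmod, Bgn and Kera (the last at very low counts) have both CD34+ bars above both CD34- bars. Aspn has both below, and Dcn, Lum and Prelp overlap between the groups.

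The chondroitin and dermatan sulphate carrying class is made up of biglycan and decorin, with asporin as a relative of the same class. Bgn, which binds collagen and TGF-beta and, when soluble, signals through toll-like receptors, had 9684, 9389, 7464 and 7940 CPM. Both CD34+ libraries were above both CD34- libraries, by 1.3 and 1.18 times between libraries of the same number. Its log2 fold change, 0.32 with an SE of 0.41, was within its error (adjusted p = 0.71, edgeR). On the deposited RPKM scale the groups overlapped and the log2 difference was -0.086, so the direction for Bgn rests on the scale. The median of all genes tested was itself -0.307 on that scale.

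Dcn encodes decorin, which binds collagen I fibrils and TGF-beta and is an antagonist of growth factor receptors. It had 2344, 6188, 1520 and 2659 CPM. CD34+ replicate 2 was the highest library, and CD34- replicate 2 lay above CD34+ replicate 1, so the groups overlapped. The mean was 4266 ± 2718 CPM in CD34+ cells and 2089 ± 805 CPM in CD34- cells (SD, n = 2 each). A log2 fold change of 1.02 with an SE of 0.59 did not pass the test (adjusted p = 0.418, edgeR). Without CD34+ replicate 2 it was 0.16, and without CD34+ replicate 1 it was 1.54.

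Aspn encodes asporin, which binds collagen and TGF-beta, dampens TGF-beta signalling and is named for a run of aspartates. It was the member that lay lower in CD34+ cells, with 40.8, 67.2, 108 and 118 CPM. Every CD34- library was above every CD34+ library. The CD34- mean was 113 ± 7.53 CPM and the CD34+ mean 54 ± 18.7 CPM (SD, n = 2 each). This is a log2 fold change of -1.05 (SE 0.31), a level 2.07-fold higher in CD34- cells. It was not called by the quasi-likelihood test of edgeR (p = 0.0135, adjusted p = 0.227), by DESeq2 (adjusted p = 0.088) or by the exact test of edgeR (adjusted p = 0.0829). Over all 18 settings, the reported one included, its log2 fold change was between -1.49 and -0.66.

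The next class holds lumican, fibromodulin, osteomodulin and keratocan, which can carry keratan sulphate. It also holds PRELP, a basic protein that binds heparan sulphate. Lum, whose product limits the width of collagen fibrils, had 427, 1261, 599 and 1099 CPM. Both libraries numbered 2 were above both numbered 1, in either group. The groups overlapped entirely, with means of 844 ± 590 CPM and 849 ± 353 CPM in CD34+ and CD34- cells (SD, n = 2 each). Its log2 fold change was -0.02 with an SE of 0.59 (adjusted p = 0.99, edgeR), and it ran from -1.0 without CD34+ replicate 2 to 0.58 without CD34- replicate 2. A difference of that size could not be told from 0 in these libraries.

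Prelp, which links collagen to basement membrane heparan sulphate, had 639, 1716, 232 and 875 CPM. As for Dcn and Lum, each library numbered 2 was above the library numbered 1 of its own group, by 2.69 times in CD34+ and 3.77 times in CD34- cells. The groups overlapped. With a log2 fold change of 1.06 and an SE of 0.75, Prelp did not pass (adjusted p = 0.504, edgeR); the value was 0.18 without CD34+ replicate 2 and 2.43 without CD34- replicate 2.

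Fmod encodes fibromodulin, which binds the same collagens as lumican and guides their cross-linking. It had 224, 95.8, 51.4 and 69.5 CPM. Both CD34+ libraries were above both CD34- libraries, and CD34+ replicate 1 stood highest. Its log2 fold change was 1.42 with an SE of 0.46, at rank 1178 of 13875 by p (adjusted p = 0.245, edgeR). Without CD34+ replicate 1 it was 0.64. Fmod was called by neither DESeq2 (adjusted p = 0.0611) nor the exact test of edgeR (adjusted p = 0.0823).

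Omd encodes osteomodulin (osteoadherin), a keratan sulphate proteoglycan best known from bone and tooth matrix. It had 23, 12.6, 4.77 and 3.08 CPM. Both CD34+ libraries were above both CD34- libraries, 4.82 and 4.1 times between libraries of the same number. This is a 4.64-fold difference, or 2.21 on the log2 scale (SE 0.45). It was not called by the quasi-likelihood test (p = 0.00236, adjusted p = 0.173, edgeR) and was called higher by DESeq2 (adjusted p = 0.00146) and the exact test of edgeR (adjusted p = 0.00185). Over the 18 settings the log2 fold change was between 1.34 and 2.96.

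Kera encodes keratocan, a proteoglycan of the cornea. Its counts were 16, 3, 1 and 0, which is 1.55, 0.22, 0.0757 and 0 CPM, and 3 counts are worth between 0.205 and 0.291 CPM in these libraries. CD34+ replicate 1 alone was clearly above that level. Summed over each group, 19 counts against 1 gave a ratio of 22.1 after scaling to the totals, with an exact 95% interval from 3.51 to 917 that covers counting error only. Since 16 of the 19 counts came from CD34+ replicate 1, the ratio describes mainly that library. The 5 fits that kept Kera gave log2 fold changes from 3.42 to 6.45. All of them included CD34+ replicate 1, and the fit without that library did not keep Kera. Their shared positive sign is therefore no separate evidence. Without a filter the log2 fold change was 4.18 (SE 1.40, adjusted p = 0.156, edgeR), and DESeq2 gave Kera no adjusted p. These fitted values depend on how counts near 0 are treated.

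Ogn encodes osteoglycin (mimecan), a member of the class of short-cored SLRPs that regulates collagen fibril assembly. It had 102, 321, 33.4 and 58.4 CPM. Both CD34+ libraries were above both CD34- libraries, and each library numbered 2 was above the library numbered 1 of its group. Means were 211 ± 155 CPM and 45.9 ± 17.7 CPM (SD, n = 2 each). On the log2 scale the difference was 2.19 (SE 0.60), or 4.57-fold. It was not called by the quasi-likelihood test (p = 0.00983, adjusted p = 0.216, edgeR) and was called higher by DESeq2 (adjusted p = 0.00224) and the exact test of edgeR (adjusted p = 0.017). Without CD34+ replicate 2 the log2 fold change was 1.14, and without CD34+ replicate 1 it was 2.78.

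Podn encodes podocan, a later described member that binds collagen I and restrains the growth of smooth muscle cells. It had 102, 121, 13.9 and 31.7 CPM. Both CD34+ libraries were above both CD34- libraries, 7.34 and 3.8 times between libraries of the same number, and the CD34+ libraries lay close together. Means were 111 ± 13.1 CPM and 22.8 ± 12.6 CPM (SD, n = 2 each). Its log2 fold change of 2.28 (SE 0.45), 4.85-fold, was the largest of the 9 and had the smallest p of them, 0.00215 (adjusted p = 0.173, edgeR), rank 159 of 13875. DESeq2 (adjusted p = 1.5e-04) and the exact test of edgeR (adjusted p = 7.0e-04) called Podn higher. It stayed between 1.62 and 3.09 over the 18 settings.

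The members thus varied in more than a single way across the libraries. In both groups, 6 of the 9 members tested were higher in the library numbered 2 than in that numbered 1: Dcn, Lum, Prelp and Ogn by 1.75 to 3.77 times, Podn by 1.18 and 2.28 times and Aspn by 1.65 and 1.1 times. Omd was lower there in both groups, at 0.549 and 0.645 of the level of the library numbered 1. Bgn differed by a factor of 0.97 and 1.06. The share of all genes tested that were higher in the library numbered 2 in both groups was not computed. The most alike pair of members over the 4 libraries was Dcn and Prelp, with a root mean square distance of 0.418 between their mean-centred log2 CPM, followed by Dcn and Lum (0.537) and Ogn and Podn (0.551); Aspn and Podn were the farthest apart (1.8). These distances rest on 4 libraries and describe them only.

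Ratios of 2 members within a library do not depend on the scaling of that library. In the chromosome 13 cluster whose promoters are printed above, the log2 ratio of the Ogn to the Aspn count was 1.32, 2.26, -1.69 and -1.02. Ogn exceeded Aspn in both CD34+ libraries and lay below it in both CD34- libraries. The log2 ratio of Omd to Aspn was -0.83, -2.41, -4.50 and -5.26, again without overlap. Both separations follow from the levels given above: Ogn and Omd were higher, and Aspn lower, in both CD34+ than in both CD34- libraries. The neighbours Omd and Ogn did not separate the groups relative to each other, with log2 ratios of Ogn to Omd of 2.15, 4.67, 2.81 and 4.25. In the chromosome 10 cluster, the log2 ratio of Dcn to Lum was 2.46, 2.29, 1.34 and 1.28. Decorin transcripts thus exceeded lumican transcripts by more in each CD34+ library than in each CD34- library, while the level of either gene alone overlapped between the groups. The log2 ratio of Lum to Prelp was -0.58, -0.44, 1.37 and 0.33, negative in the CD34+ and positive in the CD34- libraries. The log2 ratio of Dcn to Bgn was -2.05, -0.60, -2.30 and -1.58, and here the groups overlapped. These ratios are of counts and carry the gene lengths, so their sign is no order of levels per length. They are given as values and were not tested. The pairs were picked by hand from a longer list of such ratios. The share of all gene pairs that separate the groups was not computed. Among single genes tested, 23.4% separated the groups by CPM with CD34+ higher and 26.6% with CD34+ lower.

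Among 8 further genes of the leucine-rich repeat matrix family, 5 passed the filter and 0 were called by the quasi-likelihood test of edgeR. At an unadjusted p of 0.05, 1 was lower and 0 were higher. Of all genes tested, 9.81% were higher and 6.65% lower at that threshold. These shares are the background for this count and for those of the lists below. The 5 had a median of 0.30 (-0.34 without CD34+ replicate 2), with 3 positive and 2 negative. The lower gene was Podnl1, the podocan-like relative of Podn, with 3.2, 2.2, 21.6 and 11.2 CPM. Its direction was opposite to that of Podn, at -2.57 on the log2 scale with an SE of 0.46 (adjusted p = 0.171, edgeR; adjusted p = 9.2e-05, DESeq2). The log2 ratio of Podn to Podnl1 was 5.0, 5.78, -0.64 and 1.5, which did not overlap between the groups. This follows from the opposite directions of the genes, each of which separated the groups by CPM. Tsku (tsukushi, a secreted regulator of BMP and Wnt signals) had 42.5, 33.1, 27.1 and 23.4 CPM and differed by 0.61 on the log2 scale with an SE of 0.26 (adjusted p = 0.315, edgeR). The cluster neighbours Ecm2, at 15.3, 32.2, 17 and 21.8 CPM, and Epyc, at 0.484, 2.49, 3.03 and 0.888 CPM, overlapped between the groups, and Optc did not pass the filter.

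**Figure D3:**
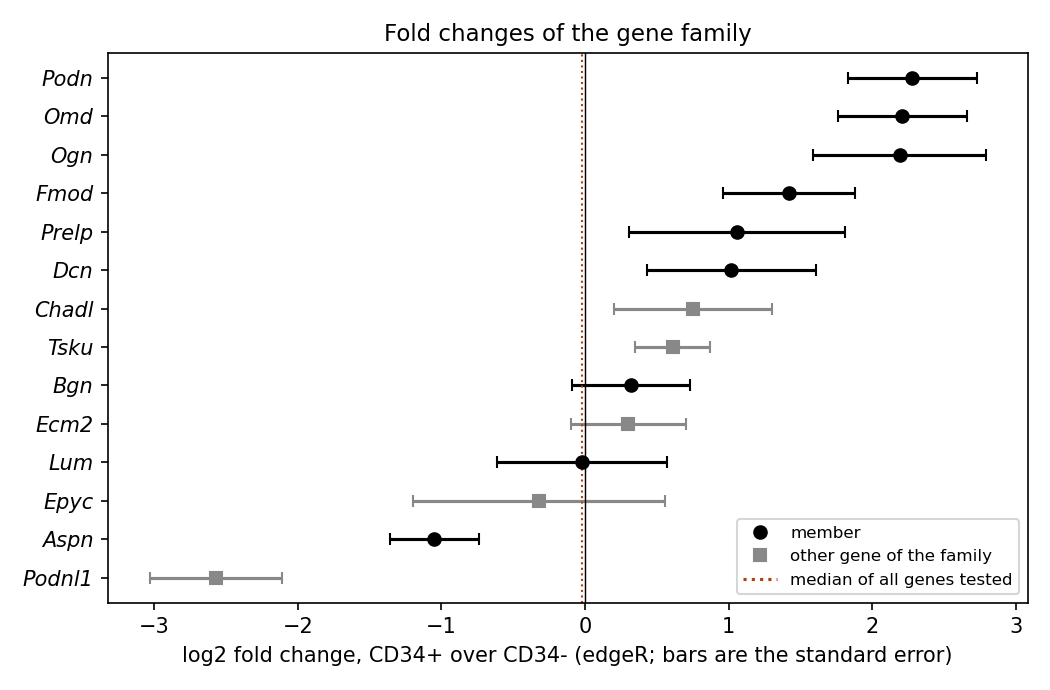
Log2 fold change of CD34+ over CD34- (horizontal axis) with the standard error from edgeR as bars, for the 9 members tested (black) and 5 other genes of the family (grey), and the median of all genes tested as a dotted line. Podn, Omd and Ogn lie near 2.2, Lum at -0.02 and Aspn at -1.05, and Podnl1 is lowest at -2.57.

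The enzymes that build the chondroitin and dermatan sulphate chains of decorin and biglycan mostly had negative fold changes. Of 22 genes 21 were tested; 4 had a positive and 17 a negative log2 fold change, with a median of -0.51, against 6756 positive, 7119 negative and a median of -0.02 over all genes tested. None was called by the quasi-likelihood test of edgeR, and 3 were lower and 0 higher at an unadjusted p of 0.05 (Chst11, Chsy1 and Chst15). Chst11, a chondroitin 4-O-sulphotransferase, had 54.9, 39.2, 146 and 141 CPM (log2 fold change -1.59, SE 0.28; adjusted p = 0.171, edgeR; adjusted p = 6.1e-04, DESeq2). Chsy1, a chondroitin synthase, had 48, 73.8, 160 and 163 CPM (-1.39, SE 0.29; adjusted p = 0.173, edgeR; adjusted p = 0.00534, DESeq2). Both genes were higher in each CD34- library than in each CD34+ library, as were 26.6% of all genes tested. The other direction without overlap held for 23.4%. Genes named for a small p, here and below, were picked on these values, which favours such separation. These enzymes also serve other proteoglycans, such as versican.

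Of 9 genes for keratan sulphate chains, 6 were tested, 1 with a positive and 5 with a negative log2 fold change, and the median was -0.60. None was called, and 2 were lower at an unadjusted p of 0.05. Fut8, a core fucosyltransferase of N-glycans, had 17.7, 26.8, 46.1 and 48.1 CPM (-1.07, SE 0.28; adjusted p = 0.212, edgeR). B3gnt2, which extends lactosamine chains, had 28.5, 36.2, 48.3 and 71.9 CPM (-0.89, SE 0.31; adjusted p = 0.268, edgeR). The CD34- libraries were the higher ones for both genes.

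The collagens and fibril proteins that SLRPs bind went in both directions. All 18 genes were tested, 8 with a positive and 10 with a negative log2 fold change, and the median of -0.16 was 0.23 without CD34+ replicate 2 and 0.055 without CD34- replicate 1. None was called; at an unadjusted p of 0.05, 4 were higher (Tnxb, Dpt, Col14a1 and Col2a1) and 3 lower (Col5a2, Col6a1 and Col6a3). Tnxb (tenascin X, which bridges collagen fibrils) had 193, 202, 9.99 and 6.15 CPM (4.65, SE 0.32; adjusted p = 0.0522, edgeR; adjusted p = 7.0e-32, DESeq2). Dpt (dermatopontin, a partner of decorin) had 377, 604, 51.6 and 44.6 CPM (3.37, SE 0.34; adjusted p = 0.134, edgeR; adjusted p = 3.4e-16, DESeq2). Every CD34+ library was above every CD34- library for both. Col14a1, a fibril-associated collagen known to bind decorin, is named after its values were seen; it had 200, 654, 68.2 and 112 CPM. Its libraries stood in the same order as those of Ogn. Col5a2, a subunit of the collagen that starts fibrils and also chosen after its values were seen, had 1804, 1662, 3338 and 3390 CPM, higher in the CD34- libraries.

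Of 13 proteases and cofactors that process or cleave SLRPs and their collagens, 12 were tested, 7 with a positive and 5 with a negative log2 fold change. The median was 0.16, and it was -0.036 without CD34+ replicate 1 and -0.044 without CD34+ replicate 2. None was called; 2 were higher (Pcolce2 and Adamts5) and 3 lower (Mmp13, Mmp9 and Tll1) at an unadjusted p of 0.05. Mmp13, a collagenase, had 16, 13, 81.8 and 414 CPM (-4.12, SE 0.81; adjusted p = 0.173, edgeR; adjusted p = 1.2e-09, DESeq2). The groups did not overlap, and CD34- replicate 2 was far above CD34- replicate 1; without it the log2 fold change was -2.41. Pcolce2, an enhancer of procollagen cleavage, had 76.7, 97.5, 29.7 and 39.8 CPM (1.33, SE 0.29; adjusted p = 0.177, edgeR; adjusted p = 0.0269, DESeq2). It was higher in each CD34+ library than in each CD34- library. Bmp1, the protease that trims probiglycan and is named after its values were seen, had 968, 632, 860 and 631 CPM, with overlap.

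Growth factors bound by SLRPs showed no gene past the test: of 10 tested, 6 had a positive and 4 a negative log2 fold change, with a median of 0.29 that was -0.25 without CD34+ replicate 1 (-0.086 when CD34- replicate 1 was left out), and 0 passed even an unadjusted p of 0.05. Igf1, a growth factor whose receptor decorin also binds, had 423, 910, 280 and 396 CPM (0.98, SE 0.45; adjusted p = 0.334, edgeR). Vegfa had 445, 232, 509 and 842 CPM (-0.99, SE 0.46; adjusted p = 0.344, edgeR). Leaving out CD34+ replicate 2 took Igf1 to 0.33 and Vegfa to -0.61, and leaving out CD34- replicate 2 took Vegfa to -0.50. The CD34+ libraries were higher for Igf1 and lower for Vegfa, without overlap in either. Of 14 receptor genes 13 were tested, 9 positive and 4 negative, with a median of 0.13 (-0.018 without CD34+ replicate 1). None was called, and 1 was lower at an unadjusted p of 0.05. This was Tgfbr1, the type I receptor of TGF-beta, with 100, 138, 204 and 257 CPM (-0.94, SE 0.30; adjusted p = 0.24, edgeR). Both CD34- libraries were above both CD34+ libraries. Kdr, a VEGF receptor to which decorin binds and an endothelial marker, had 12.9, 8.64, 5.6 and 5.81 CPM (0.93, SE 0.39; adjusted p = 0.31, edgeR). It too did not overlap, in the other direction.

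Proteoglycans outside the family gave 21 tested genes of 24, 8 positive and 13 negative, with a median of -0.21 that was -0.59 without CD34+ replicate 1 and -0.37 when CD34- replicate 1 was left out. None was called, and at an unadjusted p of 0.05, 3 were higher (Spock2, Prg4 and Tgfbr3) and 5 lower (Sdc1, Sdc2, Gpc2, Gpc4 and Spock1). Sdc1, a cell surface heparan sulphate proteoglycan, had 233, 228, 1128 and 644 CPM (-1.91, SE 0.35; adjusted p = 0.171, edgeR; adjusted p = 1.3e-05, DESeq2). Gpc2, a glypican, had 4.36, 4.1, 10.6 and 10.1 CPM (-1.27, SE 0.37; adjusted p = 0.227, edgeR). Both were higher in the CD34- libraries.

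**Figure D4:**
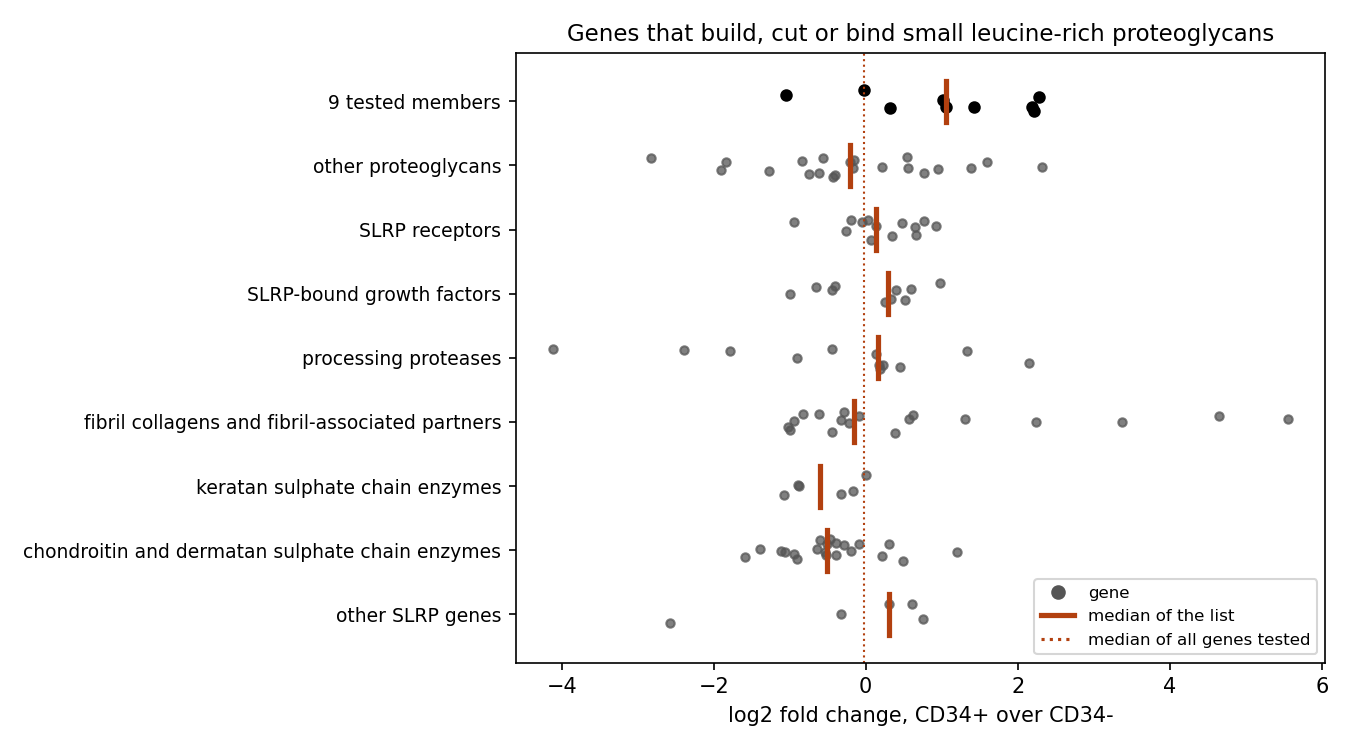
Log2 fold change of CD34+ over CD34- (horizontal axis), with a point per tested gene, a bar at the median of each list and the median of all genes tested as a dotted line. With all 4 libraries the medians are -0.51 and -0.60 for the lists of chain enzymes, -0.21 for other proteoglycans and 1.06 for the 9 members. Leaving out a library moves them: the members' median is 0.34 without CD34+ replicate 2. Without CD34+ replicate 1 other proteoglycans, at -0.59, lie below chondroitin enzymes, at -0.31, so their order changes. Points are spread vertically for legibility only.

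Of the sort markers, Cd34 had the direction of the labels, at 143, 293, 18.3 and 23.9 CPM (3.37, SE 0.43; adjusted p = 0.141, edgeR; adjusted p = 1.1e-11, DESeq2). Fap, which both groups were sorted for, was at 79, 39.8, 142 and 136 CPM, lower in both CD34+ libraries without overlap (-1.20, SE 0.37; adjusted p = 0.23, edgeR). All 12 fibroblast markers passed the filter, their summed level was 60361, 59087, 70010 and 61355 CPM, and the highest of them, Col1a2, was between 15840 and 18149 CPM. Markers of adventitial fibroblasts (cells around vessels, known for Pi16 and Dpp4) shared the direction between the groups with Podn, Omd, Ogn and Fmod: 0 were called by the quasi-likelihood test of edgeR, 11 of 11 had a positive log2 fold change, 9 with an unadjusted p under 0.05, and their summed level was 4476, 7548, 841 and 1709 CPM (Pi16: 1515, 3046, 164 and 808 CPM). Within each group that sum was higher in the library numbered 2, as were Ogn and Podn. There Omd was lower in both groups, and Fmod was lower in CD34+ and higher in CD34- cells. Tnxb and Dpt stand on that list too. Endothelial markers summed to 117, 82.6, 54.7 and 51.2 CPM, with 8 of 10 positive (Vwf: 27.1, 16.3, 3.03 and 3.42 CPM). Myeloid markers summed to 236, 154, 141 and 88.5 CPM, with 9 of 9 positive (Cd14: 115, 54.2, 76.1 and 34.8 CPM, with overlap). Pericyte markers summed to 393, 315, 489 and 565 CPM, higher in the CD34- libraries, with 3 of 8 positive. At an unadjusted p of 0.05 (edgeR), 4 of them were lower, the direction of Aspn, and 0 higher. The most abundant of them, Cspg4, had 243, 51.9, 139 and 196 CPM and overlapped between the groups. Mesothelial markers summed to 397, 233, 249 and 158 CPM, with 4 of 6 positive (Wt1: 206, 120, 57.7 and 79.3 CPM). Epithelial markers summed to 897, 597, 839 and 441 CPM, with 6 of 9 positive (Krt8: 219, 205, 263 and 142 CPM). CD34+ replicate 1, where Fmod, Omd and Kera were highest, also had the highest Cd3e level (19, 0.293, 0 and 0 CPM), while the other 8 lymphocyte markers summed to 3.1, 3.3, 1.44 and 0.957 CPM and did not single out that library. Among tendon, cartilage and bone markers, with 5 of 10 positive, Comp was higher in the libraries numbered 2 (18.6, 570, 14.5 and 161 CPM), as Dcn, Lum, Prelp and Ogn were. The other 10 listed genes summed to 130, 118, 143 and 168 CPM, which in the CD34+ group was not higher in the library numbered 2. No marker was at 0 in all libraries, and the part of these cell types in the SLRP values was not tested.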

How the data were processed

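Cells were sorted by FACS; RNA came from a Purelink preparation and was amplified with MessageAmp, per the labels' protocols. Bowtie2, TopHat2, HTSeq, edgeR and the build mm9 are named in the submitters' processing notes; tool versions, the annotation and the use of strand were not stated in the sources used here. As deposited by the authors, the tables hold whole-number counts of reads per gene, not normalized, and RPKM scaled by gene length and by library totals of their own. The authors also deposited FPKM, which the table's name describes as bias-adjusted, with estimated counts of fragments, which were rounded here. Each table has 14 further columns of per-sample values, which match no sample of the series and were not used.

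Groups come from the titles. Counts of all 13875 genes that passed filterByExpr (minimum count 10) were tested with the quasi-likelihood test of edgeR 4.0.16 in R 4.3.3, with TMM scaling and the group as the only term. P-values are two-sided and adjusted over all genes by Benjamini-Hochberg at 0.05. The fit had 2 residual degrees of freedom, to which moderation added 4.17, and the SE is the log2 fold change over the square root of F. The scripts were tested on simulated counts. Alternatives were DESeq2 1.42.0, limma 3.58.1 (voom, or log2 of RPKM or FPKM with a pseudocount of 1 or 0.1), other scalings and filters, the estimated counts, a replicate block and leaving out each library. A level of 3 counts, covering counting error only, was 0.291, 0.22, 0.227 and 0.205 CPM in the order used in the report.

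The members and all lists were chosen with earlier results of these data known. Named genes are the members, the sort markers and, per list, the 2 genes of the smallest p with a mean of at least 5 CPM, or the most abundant marker. For Dcn, Bgn and Lum the 3 genes nearest in profile, and family genes beside a member in the genome, are also named; those few outside this rule are said to be or are listed by name beside a count. Promoter letters were taken from RefSeq by symbol, which all 10 members matched. Protein sequences were not used here.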

Additional observations from a re-analysis of the deposited data

How the results depend on the processing

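The quasi-likelihood test of edgeR called 0 SLRP members and 0 genes in all. The number of members called higher was 3 with DESeq2, 3 with the exact test of edgeR and 3 without a filter on low counts, and 0 in each fit that left out a library; 0 members were called lower in any setting. The number of all genes called was 534 with DESeq2, 676 with the exact test, 331 without a filter, 2 with scaling by library total only, 2 with upper quartile scaling, 2 with a filter of 1 CPM in 2 libraries and 51 on log2(RPKM + 0.1). With the replicate number as a block, 2 members (Ogn and Podn, adjusted p = 0.0458 and 0.0487, edgeR) and 62 genes were called. The labels do not say that a number marks shared animals, and with 2 pairs the pairing could not be established; the deviations of same-numbered libraries correlated at 0.238 over 13875 genes, which are not independent. Dcn, Fmod, Ogn, Omd, Prelp and Podn stayed positive and Aspn negative in all 18 settings. The log2 fold change of Bgn was -0.086 on log2(RPKM + 1), -0.086 on log2(RPKM + 0.1) and -0.19 on log2(FPKM + 1), scales on which the median of all genes was -0.307, -0.417 and -0.309. That of Lum was 0.081 with upper quartile scaling, 0.21 on the estimated fragment counts and from -1.0 to 0.58 when a library was left out, reversed without CD34+ replicate 1 (0.54) and without CD34- replicate 2 (0.58). The cause of these changes was not tested. Depth limits Kera, whose 4 libraries hold between 0 and 16 counts.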

Other observations

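Genes with the profile most like that of a member over the 4 libraries were sought among 10522 genes with a mean of at least 5 CPM, by the root mean square distance between mean-centred log2 CPM. For Dcn the nearest were Amigo1 (0.0557), Igfbp6 (0.0582), which encodes an IGF-binding protein, and Gas6 (0.107), a ligand of TAM receptors. Igfbp6 had 320, 769, 191 and 327 CPM and Gas6 had 1374, 2966, 827 and 1481 CPM in CD34+ replicates 1 and 2 and CD34- replicates 1 and 2. For Lum the nearest were H19 (0.0437), an imprinted noncoding RNA with 146, 433, 219 and 373 CPM, Clec11a (0.0841) and Dpep2 (0.0886). Like Lum, H19 was higher in both libraries numbered 2 than in both numbered 1. For Bgn, whose level varied little, the nearest were Med29 (0.0098), Cyp2d22 (0.0107) and Cetn3 (0.0125). With 4 points per profile and this many genes, close profiles are common, and the distances describe these libraries only.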
